A study of Homo sapiens with 6 samples.

Results

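The aldehyde and alcohol dehydrogenases described here were 10 genes of the 56303 in the deposited count table, 8 of the aldehyde dehydrogenase (ALDH) family and 2 of the alcohol dehydrogenase (ADH) family. They were listed by name, by a rule that uses no measured value but was written with earlier results of these data known: ALDH1A3, ALDH1B1, ALDH2, ALDH3A1, ALDH3A2, ALDH3B1, ALDH7A1, ALDH9A1, ADH1C and ADH5. All 10 had enough counts to be among the 21298 genes tested.

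The RNA came from T24, an established human bladder carcinoma line, with the genotype given as WT in both groups. Cells of the first group received siNC, a control small interfering RNA, and cells of the second group received siFBXL6, directed at FBXL6, the substrate-binding subunit of a ubiquitin ligase. RNA was taken 48 h after transfection, with 3 samples in each group and the same batch label on every sample, and which siRNA against FBXL6 was used was not stated. The numbers in the labels (siFBXL6-1 to siFBXL6-3, siNC-1 to siNC-3) were read as replicates, but siFBXL6-1 and siFBXL6-2 are also the names of 2 siRNAs in the paper, so a group of different siRNAs cannot be told apart from replicates of 1. The comparison asks which transcripts differ between the groups. Library totals were 58646515, 60967902 and 56814946 counts for siNC and 60968158, 60898556 and 60754015 counts for siFBXL6. Whether a count stands for a read or for a pair of reads was not stated, and most low counts were even numbers, so printed counts may exceed the number of sequenced fragments.

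Alcohol dehydrogenases oxidize alcohols such as ethanol and retinol to aldehydes, and aldehyde dehydrogenases oxidize aldehydes to carboxylic acids, in both cases with a nicotinamide cofactor. Together they clear acetaldehyde, formaldehyde and the reactive aldehydes of lipid peroxidation, and the ALDH1A enzymes make retinoic acid, the ligand of nuclear receptors that take part in the differentiation of urothelium. High ALDH activity is used to sort cells with stem-like properties from bladder and other carcinomas, and some of these enzymes inactivate the aldehyde form of cyclophosphamide.

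FBXL6 (GRCh38, chromosome 8, 144355431 to 144359376, minus strand) had 362, 414 and 398 counts in the siNC libraries and 398, 344 and 350 in the siFBXL6 libraries. The highest library labelled siFBXL6 exceeded the lowest labelled siNC, so the groups overlapped. In CPM, counts scaled by the TMM-normalized library size, these were means of 6.61 ± 0.380 and 6.03 ± 0.483 CPM (SD, n = 3 each). The log2 fold change was -0.13, with a standard error (SE) of 0.0875, an adjusted p of 0.247 in edgeR's quasi-likelihood test and p = 0.2 in an exact two-sided permutation test, where 0.1 is the smallest value that 3 samples against 3 allow. SLC52A2, on the opposite strand, covers 31.7% of the exon bases of FBXL6, and whether the counting used the strand was not stated. SLC52A2 had more counts than FBXL6, with 548, 622 and 607 against 697, 664 and 653. Elsewhere in the table, RP5-940J5.9 lies wholly within exons of GAPDH on the opposite strand and had 2264 to 8839 counts. Its log2 fold change was 1.83 beside 1.80 for GAPDH, so the same reads may have been counted for genes on both strands. RP11-466F5.6, however, shares 96 exon bases with ALDH9A1 on the opposite strand and had 1 to 5 counts, beside 2036 to 2749 for ALDH9A1. How many reads of ALDH9A1 fell on these 96 bases was not examined. Whether reads were counted on both strands was not tested. How many of the counts of FBXL6 came from SLC52A2 cannot be told apart. Because the target did not separate the groups, the libraries are named by their labels throughout, and each direction below is that of the libraries labelled siFBXL6 relative to those labelled siNC.

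The markers checked against the label of a bladder cancer cell were 18 urothelial and epithelial genes. Their summed level was 4113, 3986 and 4097 CPM in the libraries labelled siNC and 3655, 3643 and 3655 CPM in those labelled siFBXL6, with KRT7 as the most abundant (1011 CPM on average). KRT20, UPK1A, UPK1B and UPK3A, markers of differentiated urothelium, stayed under 1 CPM in every library. UPK2 was between 1.10 and 1.64 CPM and was not called. UPK3B was between 0.265 and 1.20 CPM and was called lower (log2 fold change -1.19, adjusted p = 0.00115 in edgeR's test). Of the 14 markers tested, 2 were called higher and 9 lower (78.6% called, beside 40.2% of all genes tested, 20.5% higher and 19.8% lower). The summed level of 7 mesenchymal markers was between 2642 and 2780.4 CPM with the siNC label and between 2392 and 2443 CPM with the siFBXL6 label, and most of it was FN1 (2305 CPM), with 2 of 7 called higher and 2 lower. All 6 immune markers were under 1 CPM in every library, and the 3 muscle markers were not called, MYH11 being the most abundant at 4.79 CPM. The 4 endothelial markers summed to 1.92, 1.62 and 1.76 CPM against 2.45, 2.15 and 3.24 CPM, with VWF as the most abundant (1.02 CPM), CDH5 and CLDN5 under 1 CPM in every library, and PECAM1 as the only endothelial marker called (0.573 to 1.39 CPM, log2 fold change 1.28, adjusted p = 4.40e-05). The part of these marker differences in the results was not tested.

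Of the 10 dehydrogenases, ALDH1A3 and ALDH9A1 were higher and ADH1C and ALDH1B1 were lower in the libraries labelled siFBXL6. ADH1C fell to 0.446 of its level and was the only member with a change of at least 2-fold, while ALDH1A3 rose 1.10-fold, ALDH9A1 rose 1.24-fold and ALDH1B1 fell to 0.844 of its level. ALDH2, ALDH3A1, ALDH3A2, ALDH3B1, ALDH7A1 and ADH5 did not pass the test. A gene was called at a Benjamini-Hochberg adjusted p under 0.05 over all genes tested. By this rule 4 of the 10 members were called (40%), beside 40.2% of all genes tested, with 2 called higher beside 20.5% and 2 called lower beside 19.8%. At least 2-fold with a call was 1 of 10, beside 2.92% of all genes. Values without overlap between groups were found for 4 of the 10, the same 4 that were called, beside 48.2% of all genes. The median log2 fold change was -0.02 over the members and -0.01 over all genes tested, so neither the share of calls nor the median set the members apart from the whole table. The labels do not say whether the samples of a group were separate cultures, so the p-values measure only the spread between these samples. In RNA from whole cultures, fewer cells that hold a transcript and less of it per cell cannot be told apart.

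**Figure D1:**
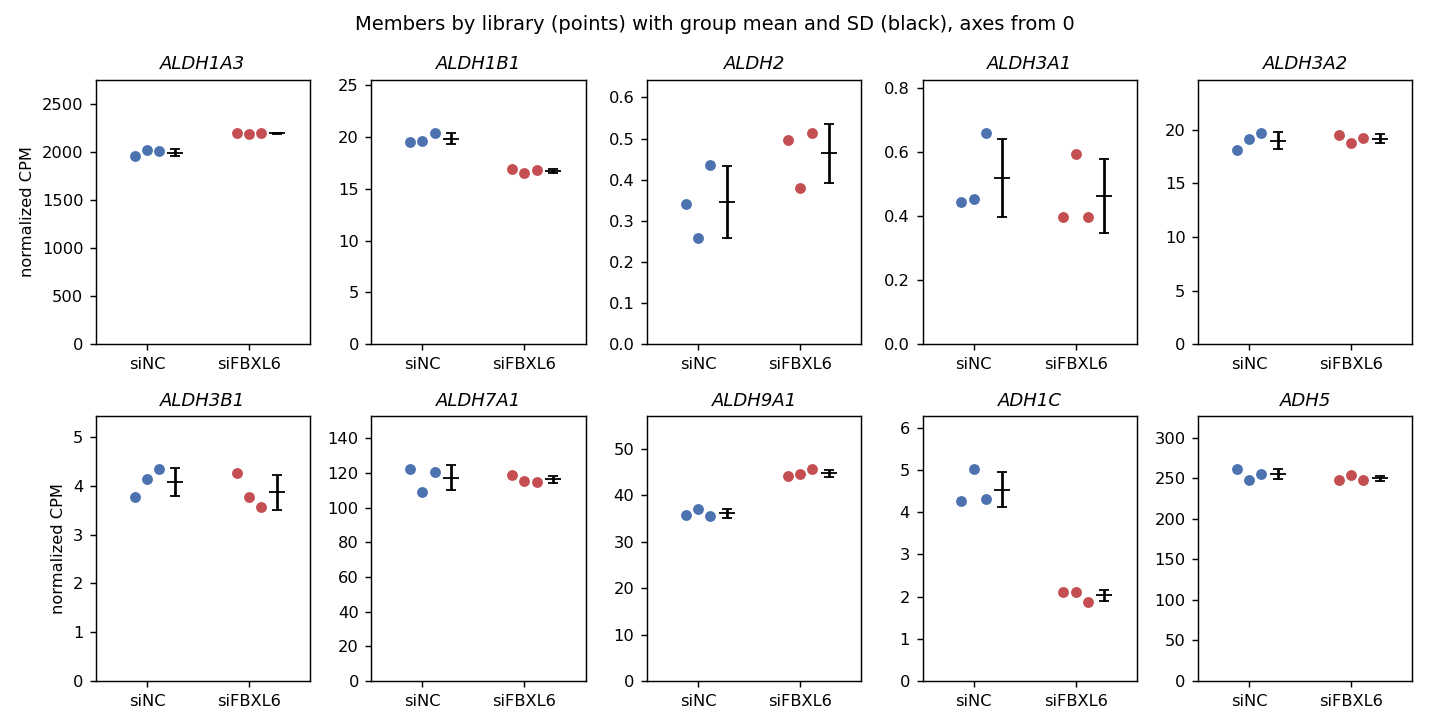
Normalized level in CPM of each of the 10 members in every library (points), with the group mean and SD (black, n = 3) and each axis starting at 0. The points of the libraries labelled siFBXL6 lie wholly above those labelled siNC for ALDH1A3 and ALDH9A1, wholly below them for ALDH1B1 and ADH1C, and overlap them for the other 6 genes.

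Expressed per kilobase of summed exon length (RPKM), the levels of the members covered a wide range. ALDH1A3 stood first at a mean of 363 RPKM over the 6 libraries, followed by ADH5 at 51.9 RPKM and ALDH9A1 at 12.2 RPKM. ALDH7A1 (6.50 RPKM) and ALDH1B1 (5.81 RPKM) came next and were the only neighbours in the order whose ranges over the 6 libraries overlapped. ALDH3A2 was at 2.96 RPKM, ADH1C at 1.76 RPKM and ALDH3B1 at 0.600 RPKM. The lowest levels were those of ALDH3A1 (0.126 RPKM) and ALDH2 (0.0416 RPKM). The order depended on the length in 1 place: per kilobase of the canonical transcript, a length chosen after the data were seen, ALDH7A1 (24.5 RPKM) stood above ALDH9A1 (16.9 RPKM). The plot of levels per length shows these distances on a log axis.

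ALDH1A3, which oxidizes retinal to retinoic acid in the cytosol, was at 1958, 2019.6 and 2008 CPM in the libraries labelled siNC and at 2202, 2189.7 and 2194 CPM in those labelled siFBXL6. All 3 libraries labelled siFBXL6 were above all 3 labelled siNC, and they differed among themselves by less. The means were 1995 ± 32.9 and 2195 ± 6.17 CPM (SD, n = 3 each), and the log2 fold change was 0.14 (SE 0.0255, 95% interval 0.09 to 0.19), with an adjusted p of 3.71e-05 in edgeR's test. This 1.10-fold rise was the smallest among the called members. The gene lies at chr15:100877714-100916626 on the plus strand of GRCh38, and 28.6% of its exon bases also belong to other gene models of the table. Most of the shared bases (27.5% of its exon bases) belong to RP11-66B24.4 on the opposite strand, which had 38988 to 41315 counts with the siNC label and 43669 to 44247 with the siFBXL6 label. Its count was 33.0 to 34.8% of that of ALDH1A3 in every library, and reads of these genes on the shared bases cannot be told apart. The 3 genes of at least 10 CPM with the profile nearest to that of ALDH1A3 over the 6 libraries, among 9886 ranked, were PAQR3, PHF21A and RP11-380O24.1. Their root mean square distances in centred log2 CPM were 0.00937, 0.0112 and 0.0117, and their own log2 fold changes were 0.13, 0.15 and 0.13. Because the genes were chosen by profile over the same libraries, fold changes near that of ALDH1A3 follow from the choice.

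The genes around ALDH1A3 in retinoid metabolism had more lower than higher calls. Of 26 genes for retinol oxidation, storage, binding, breakdown and reception, 22 were tested, 4 were higher, 10 lower and 8 not called, beside 20.5% of all genes higher and 19.8% lower, with a median log2 fold change of -0.17. The number of higher genes was 2 in place of 4 without siNC replicate 2, without siFBXL6 replicate 1, 2 or 3, with DESeq2, with upper-quartile normalization, with library size alone and with no filter, while the number of lower genes stayed between 9 and 11 over the 14 alternatives. CRABP2, which carries retinoic acid to its receptor in the nucleus, was at 434, 445 and 459 CPM in the libraries labelled siNC and at 264, 269.6 and 263 CPM in those labelled siFBXL6. Its groups lay far apart, with a log2 fold change of -0.75 (SE 0.0296, adjusted p = 2.20e-20). FABP5, which binds fatty acids and also retinoic acid, fell from 423 ± 11.9 to 312 ± 3.37 CPM (SD, n = 3 each; log2 fold change -0.44, adjusted p = 2.48e-14). RXRA, the shared partner of retinoic acid receptors, fell from 92.9 ± 1.64 to 68.0 ± 1.78 CPM (SD, n = 3 each; log2 fold change -0.45, adjusted p = 1.65e-13). ALDH1A2, another enzyme that makes retinoic acid, fell from 5.6 ± 0.117 to 3.91 ± 0.281 CPM (SD, n = 3 each; log2 fold change -0.52, adjusted p = 5.59e-05). RBP4, which carries retinol in blood, rose from 1.57 to 2.61 CPM (log2 fold change 0.73, adjusted p = 0.000203) and is named after its values were seen. ALDH1A1, the remaining enzyme of this subfamily, was at 0.895 ± 0.0716 and 0.955 ± 0.0426 CPM and was not called (adjusted p = 0.772).

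ALDH9A1, which oxidizes aminoaldehydes and acts in the synthesis of carnitine, was at 35.7, 37.2 and 35.5 CPM in the libraries labelled siNC and at 44.2, 44.6 and 45.6 CPM in those labelled siFBXL6. Every library labelled siFBXL6 exceeded every library labelled siNC by more than the spread within either group. The means were 36.1 ± 0.933 and 44.8 ± 0.747 CPM (SD, n = 3 each), a 1.24-fold rise with a log2 fold change of 0.31 (SE 0.0390, 95% interval 0.23 to 0.39, adjusted p = 5.18e-08). The gene lies at chr1:165662216-165698863 on the minus strand of GRCh38, and the gene models Y_RNA and RP11-466F5.6 cover 6.02% of its exon bases. RP11-466F5.6, on the opposite strand, covers 2.90%. A Y_RNA transcript shares 54 runs of 50 bases with the ALDH9A1 transcript in the same orientation. Among 14 genes of amine, polyamine and carnitine metabolism, 12 were tested, 4 were higher, 3 lower and 5 not called (58.3% called, beside 40.2% of all genes), with a median log2 fold change of 0.01. MAOA, the mitochondrial monoamine oxidase that produces aldehydes from amines, rose from 17.6 ± 1.09 to 25.9 ± 0.788 CPM (SD, n = 3 each; log2 fold change 0.56, adjusted p = 1.02e-10). SAT1, which acetylates spermine and spermidine, rose with a log2 fold change of 0.32 (adjusted p = 4.42e-12), and SMOX, the spermine oxidase, fell with one of -0.49 (adjusted p = 9.45e-15). BBOX1 acts last in carnitine synthesis, after the step of ALDH9A1. It was at 2.00, 1.51 and 1.90 CPM against 0.827, 0.662 and 0.597 CPM. The groups of BBOX1 did not overlap, and its log2 fold change of -1.37 (SE 0.202, adjusted p = 1.08e-06) was opposite in sign to that of ALDH9A1.

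ALDH1B1, a mitochondrial enzyme that accepts acetaldehyde and other short aldehydes, was at 19.5, 19.6 and 20.4 CPM in the libraries labelled siNC and at 16.9, 16.6 and 16.8 CPM in those labelled siFBXL6. All 3 libraries labelled siFBXL6 were below all 3 labelled siNC. The means were 19.9 ± 0.506 and 16.8 ± 0.192 CPM (SD, n = 3 each), and the log2 fold change was -0.24 (SE 0.0527, 95% interval -0.35 to -0.14, adjusted p = 0.00029). The gene lies at chr9:38392664-38398661 on the plus strand of GRCh38 and shares no exon base with another gene of the table. ALDH2, the main mitochondrial enzyme for acetaldehyde from ethanol, was nearly silent, with 20, 16 and 25 counts in the libraries labelled siNC and 30, 23 and 31 in those labelled siFBXL6. The groups overlapped, and the log2 fold change of 0.43 had an interval from -0.25 to 1.11 (adjusted p = 0.337), wide at these low counts. Of its exon bases, 7.0% lie in RP11-162P23.2 on the same strand too.

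The product of these mitochondrial enzymes, acetate, is turned into acetyl-CoA by other genes. Of 12 genes for acetate and acetyl-CoA, 11 were tested, 4 were higher and 7 not called, with a median log2 fold change of 0.05. This is 36.4% called, near the 40.2% of all genes. All calls were higher, so 36.4% stands beside 20.5% higher over all genes, and 0 lower beside 19.8%. ACSS1, the mitochondrial acetyl-CoA synthetase, was at 2.91, 2.88 and 2.37 CPM in the libraries labelled siNC and at 7.14, 6.26 and 6.74 CPM in those labelled siFBXL6. The groups were well apart, with a log2 fold change of 1.30 (SE 0.106, adjusted p = 3.44e-12). HMGCS1 and ACAT2, which act early in sterol synthesis, rose with log2 fold changes of 0.34 (adjusted p = 2.79e-09) and 0.16 (adjusted p = 0.00063).

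Promoters are shown for the 3 called ALDH members, which lie on 3 chromosomes and moved in both directions, so that their sequence can be set beside their changes. RefSeq promoter windows of 300 bases (250 before and 50 after the annotated start, GRCh38.p14) were matched for 8 of the 10 members, and ALDH2 and ALDH3A1 were not matched. Capitals mark, on either strand, the GC box GGGCGG, the CCAAT box CCAAT, the TATA box TATAAA and the E box CACGTG. The windows are chr15:100879581-100879880 on the plus strand for ALDH1A3, chr1:165698513-165698812 on the minus strand for ALDH9A1 and chr9:38392452-38392751 on the plus strand for ALDH1B1. Those of ALDH1A3 and ALDH9A1 lie inside the counted gene, because the RefSeq start is downstream of the start in the count table. That start is 100877714 for ALDH1A3 and, on the minus strand, 165698863 for ALDH9A1.
ALDH1A3: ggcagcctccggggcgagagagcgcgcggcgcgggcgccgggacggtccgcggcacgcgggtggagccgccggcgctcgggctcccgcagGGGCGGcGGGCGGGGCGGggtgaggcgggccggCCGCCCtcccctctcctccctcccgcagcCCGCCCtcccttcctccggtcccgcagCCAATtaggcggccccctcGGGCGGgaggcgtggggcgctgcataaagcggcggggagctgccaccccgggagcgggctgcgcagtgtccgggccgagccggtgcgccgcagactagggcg
ALDH9A1: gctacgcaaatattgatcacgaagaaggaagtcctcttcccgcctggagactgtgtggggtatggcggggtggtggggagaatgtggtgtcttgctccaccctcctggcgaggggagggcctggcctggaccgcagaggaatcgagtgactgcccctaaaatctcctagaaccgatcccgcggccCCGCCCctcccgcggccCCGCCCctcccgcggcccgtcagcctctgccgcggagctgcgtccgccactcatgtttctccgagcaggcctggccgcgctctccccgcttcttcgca
ALDH1B1: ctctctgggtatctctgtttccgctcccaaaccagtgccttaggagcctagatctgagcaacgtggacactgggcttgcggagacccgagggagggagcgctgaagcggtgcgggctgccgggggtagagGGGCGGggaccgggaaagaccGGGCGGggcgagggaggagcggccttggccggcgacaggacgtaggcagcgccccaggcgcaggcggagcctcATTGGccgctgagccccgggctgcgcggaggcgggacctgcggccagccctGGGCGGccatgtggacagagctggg
The 3 windows held more CpG dinucleotides than the median promoter, and only that of ALDH1A3 lay above the upper quartile. ALDH1A3 had 46 CpG and 81.7% G and C, ALDH9A1 had 26 and 66.7%, and ALDH1B1 had 27 and 71.3%, where the median over 35116 promoters was 14 CpG with quartiles of 4 and 28. GC boxes were found 6 times in ALDH1A3, 2 times in ALDH9A1 and 3 times in ALDH1B1, and at least once in 45.0% of all promoters. A CCAAT box was found once each in ALDH1A3 and ALDH1B1, beside 34.6% of all promoters. None of the 3 windows held the TATA box (11.5% of all promoters) or the E box (7.26%). GC boxes and a CpG count above the median were thus found both in the genes that rose and in the gene that fell.

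ADH1C, an enzyme of the class I group that oxidizes ethanol and retinol, was at 4.27, 5.02 and 4.32 CPM in the libraries labelled siNC and at 2.10, 2.10 and 1.87 CPM in those labelled siFBXL6. These came from 250, 310 and 248 counts against 127, 127 and 113 counts. The libraries labelled siFBXL6 were all low and close together, and none came near a library labelled siNC. The means were 4.54 ± 0.417 and 2.03 ± 0.131 CPM (SD, n = 3 each), and the log2 fold change was -1.16 (SE 0.121, 95% interval -1.41 to -0.92, adjusted p = 1.05e-09). Among 9887 genes of at least 10 CPM, those with the nearest profile over the 6 libraries were PTPRZ1, EFEMP1 and PEG10. Their root mean square distances in centred log2 CPM were 0.0803, 0.0981 and 0.104, and their log2 fold changes were -1.17, -1.15 and -1.26. Fold changes near that of ADH1C follow from the choice by profile over the same libraries.

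ADH1C lies at chr4:99336492-99353027 in the ADH cluster of chromosome 4, where ADH5, ADH4, ADH6, ADH1A, ADH1B, ADH1C and ADH7 follow each other on the minus strand of GRCh38. ADH4 (5 to 11 counts) and ADH7 (0 to 2 counts) had too few counts to be tested. ADH6 was at 2.15, 2.27 and 2.11 CPM against 1.74, 1.57 and 1.33 CPM, without overlap, and fell with a log2 fold change of -0.49 (SE 0.155, adjusted p = 0.0105). ADH1A, a class I neighbour, had 42, 69 and 41 counts in the libraries labelled siNC and 32, 29 and 26 in those labelled siFBXL6. The siNC library with 69 counts stood above all others, the groups did not overlap, and the log2 fold change was -0.82 (SE 0.271, adjusted p = 0.0139). With a library left out, which leaves fewer samples, some of these calls missed the threshold while the direction stayed. Without siNC replicate 2, ADH1A had a log2 fold change of -0.57 (adjusted p = 0.151) and ADH6 one of -0.46 (adjusted p = 0.0409). Without siFBXL6 replicate 3 they had -0.75 (adjusted p = 0.0536, unadjusted 0.0187) and -0.39 (adjusted p = 0.0747, unadjusted 0.028) in edgeR's test. ADH1B, the other class I neighbour, had 21, 23 and 26 counts against 30, 31 and 34. Its libraries labelled siFBXL6 were all the higher ones, but the gene was not called (log2 fold change 0.41, 95% interval -0.22 to 1.04, adjusted p = 0.318). Of the 5 cluster genes tested, 3 were called lower, beside 19.8% of all genes, and ADH5 and ADH1B were not called. Whether the genes of the cluster differed from each other in their change was not tested.

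The promoters of the class I genes are shown because these neighbours are alike in sequence and 2 of the 3 were called lower. Capitals mark the same motifs as above, on either strand. The windows are chr4:99352697-99352996 for ADH1C, chr4:99290936-99291235 for ADH1A and chr4:99321352-99321651 for ADH1B, all on the minus strand of GRCh38.p14 in RefSeq. That of ADH1C lies inside the counted gene, which starts at 99353027 on this strand.
ADH1C: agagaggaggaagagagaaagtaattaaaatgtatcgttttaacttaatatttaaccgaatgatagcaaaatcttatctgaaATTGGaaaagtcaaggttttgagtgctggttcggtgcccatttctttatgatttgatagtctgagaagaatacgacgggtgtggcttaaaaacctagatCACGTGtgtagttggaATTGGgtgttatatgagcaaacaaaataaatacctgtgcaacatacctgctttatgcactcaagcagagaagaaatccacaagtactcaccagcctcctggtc
ADH1A: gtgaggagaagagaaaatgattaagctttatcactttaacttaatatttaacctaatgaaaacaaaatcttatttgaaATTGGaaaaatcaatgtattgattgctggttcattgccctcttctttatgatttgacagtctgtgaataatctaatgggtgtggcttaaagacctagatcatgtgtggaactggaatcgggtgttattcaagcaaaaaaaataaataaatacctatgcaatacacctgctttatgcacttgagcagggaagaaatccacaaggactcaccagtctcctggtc
ADH1B: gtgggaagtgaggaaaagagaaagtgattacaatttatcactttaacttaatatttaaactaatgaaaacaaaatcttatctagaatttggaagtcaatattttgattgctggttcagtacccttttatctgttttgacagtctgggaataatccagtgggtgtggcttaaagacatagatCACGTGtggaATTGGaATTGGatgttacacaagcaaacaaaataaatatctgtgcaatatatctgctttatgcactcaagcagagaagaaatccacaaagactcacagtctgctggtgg
Aligned over their whole length, ADH1C and ADH1A were identical in 82.2% of columns, ADH1C and ADH1B in 81.3%, and ADH1A and ADH1B in 81.9%, while ADH1C and ADH5 shared 39.3%. The class I windows were poor in CpG, with 6 in ADH1C and 1 each in ADH1A and ADH1B, and had 38.0%, 35.0% and 35.0% G and C. None held a GC box. The CCAAT box was found 2 times in ADH1C, 1 time in ADH1A and 2 times in ADH1B. ADH1C and ADH1B each held the E box CACGTG, and ADH1A did not, so the gene pair called lower did not share it. The transcripts are alike as well: 16.4% of the 50-base runs of the ADH1C transcript also occur in a transcript of ADH1B and 4.77% in one of ADH1A. How reads that match several genes were counted was not stated, which leaves the counts of these copies uncertain. ADH1A and ADH1B together held fewer counts than ADH1C in every library.

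ADH5, the class III enzyme that oxidizes the glutathione adduct of formaldehyde and reduces S-nitrosoglutathione, was at 261, 249 and 256 CPM in the libraries labelled siNC and at 248, 254 and 248 CPM in those labelled siFBXL6. The groups overlapped, with means of 255 ± 6.31 and 249.8 ± 3.20 CPM (SD, n = 3 each). Its log2 fold change was -0.03 (SE 0.0297, adjusted p = 0.457), and its 95% interval ran from -0.09 to 0.03. ADH5 lies at chr4:99070978-99088801, at the end of the cluster away from ADH1C. Of the 50-base runs of its transcript, 10.1% also occur in ADH5P4, a processed copy with 4 to 28 counts per library. Of 15 genes for formaldehyde, methylglyoxal, glutathione and folate-bound carbon, all were tested, 4 were higher, 5 lower and 6 not called (60% called, beside 40.2% of all genes), with a median log2 fold change of -0.10. The mitochondrial folate enzymes MTHFD2 and SHMT2 rose with log2 fold changes of 0.30 (adjusted p = 5.64e-10) and 0.24 (adjusted p = 6.94e-07). MTHFD1 and SHMT1 of the same list, named after their values were seen, fell. Their log2 fold changes were -0.14 (adjusted p = 0.000246) and -0.16 (adjusted p = 0.00631) in edgeR's test. GLO1, which clears methylglyoxal with glutathione, fell from 86.1 ± 8.22 to 67.6 ± 1.21 CPM (SD, n = 3 each; log2 fold change -0.35, adjusted p = 2.99e-08).

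ALDH7A1, which oxidizes aminoadipic semialdehyde in the breakdown of lysine, was at 122, 109 and 121 CPM in the libraries labelled siNC and at 119, 115 and 115 CPM in those labelled siFBXL6. All values of the libraries labelled siFBXL6 lay within the range of the others, and the log2 fold change was -0.01 (95% interval -0.09 to 0.06, adjusted p = 0.810). Its pseudogene ALDH7A1P1, which shares 7.42% of the 50-base runs of its transcript, had 32 to 60 counts per library. Of 10 genes of lysine breakdown and the neighbouring steps, all were tested, 2 were lower and 8 were not called, with a median log2 fold change of -0.12. This is 20% called beside 40.2% of all genes, with 20% lower beside 19.8% and 0 higher beside 20.5%. The 2 that fell were AASS, the enzyme at the start of the pathway (17.4 ± 1.04 to 13.5 ± 0.193 CPM, SD, n = 3 each; log2 fold change -0.36, adjusted p = 4.90e-06), and AADAT, the transaminase that follows ALDH7A1 (10.6 ± 0.101 to 8.36 ± 0.191 CPM; log2 fold change -0.34, adjusted p = 0.000148). PYCR1, an enzyme of proline synthesis, was next in adjusted p and was not called (log2 fold change 0.11, adjusted p = 0.0709).

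The ALDH3 members act on longer and aromatic aldehydes. ALDH3A2, the fatty aldehyde dehydrogenase of the endoplasmic reticulum, was at 18.1, 19.1 and 19.7 CPM in the libraries labelled siNC and at 19.5, 18.7 and 19.2 CPM in those labelled siFBXL6. Its groups overlapped fully, with a log2 fold change of 0.01 (95% interval -0.09 to 0.12, adjusted p = 0.869). ALDH3B1, a membrane-bound enzyme for medium and long aldehydes, was at 3.76, 4.13 and 4.34 CPM against 4.27, 3.78 and 3.57 CPM. The groups again overlapped, with a log2 fold change of -0.07 (95% interval -0.30 to 0.15, adjusted p = 0.635). ALDH3A1, known for its abundance in the cornea, had 26, 28 and 38 counts against 24, 36 and 24 counts, and RP11-311F12.2 on the opposite strand covers 2.50% of its exon bases. At this depth the log2 fold change of -0.16 had an interval from -0.80 to 0.48 (adjusted p = 0.729). Of 12 genes for fatty aldehydes and sphingolipid breakdown, 10 were tested, 3 were higher, 1 lower and 6 not called (40% called, close to the 40.2% of all genes), with a median log2 fold change of 0.11. SPHK1, which makes sphingosine 1-phosphate, was at 5.44, 5.67 and 5.73 CPM against 11.66, 11.03 and 11.13 CPM. This rise had a log2 fold change of 1.01 (SE 0.0751, adjusted p = 4.10e-13). SGPL1 splits sphingosine 1-phosphate into a fatty aldehyde that ALDH3A2 oxidizes, and it rose with a log2 fold change of 0.35 (adjusted p = 4.98e-10). FAR1, which reduces fatty acyl-CoA to fatty alcohol, fell with one of -0.22 (adjusted p = 1.80e-06).

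Outside the 10 members, the ALDH family had 11 further genes, all tested, of which 7 were lower and 4 not called. This is 63.6% called, beside the 40.2% of all genes, and the median log2 fold change was -0.35; no test of the difference from the members was made. ALDH5A1, which oxidizes succinic semialdehyde from GABA, was at 17.3, 15.3 and 15.2 CPM in the libraries labelled siNC and at 10.6, 8.64 and 9.61 CPM in those labelled siFBXL6. The groups did not overlap, and the log2 fold change was -0.73 (SE 0.0714, adjusted p = 2.87e-10). ALDH1L1, the cytosolic formyltetrahydrofolate dehydrogenase, fell from 7.59 ± 0.310 to 4.91 ± 0.566 CPM (SD, n = 3 each; log2 fold change -0.63, adjusted p = 6.96e-07). The others that fell, beside ALDH1A2, were ALDH6A1, ALDH16A1, ALDH4A1 and ALDH18A1, named here after their values were seen, with log2 fold changes of -0.47, -0.41, -0.35 and -0.24. Among 6 further ADH genes, 4 were tested and 2 were lower, ADH1A and ADH6. The whole set of 27 ALDH and ADH genes had 25 tested, 2 higher, 11 lower and 12 not called (52% called, beside 40.2% of all genes, 20.5% higher and 19.8% lower), with a median log2 fold change of -0.16. Thus both family genes that were called higher, ALDH1A3 and ALDH9A1, were among the members. The plot of family fold changes shows the called genes of each group with their intervals.

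**Figure D2:**
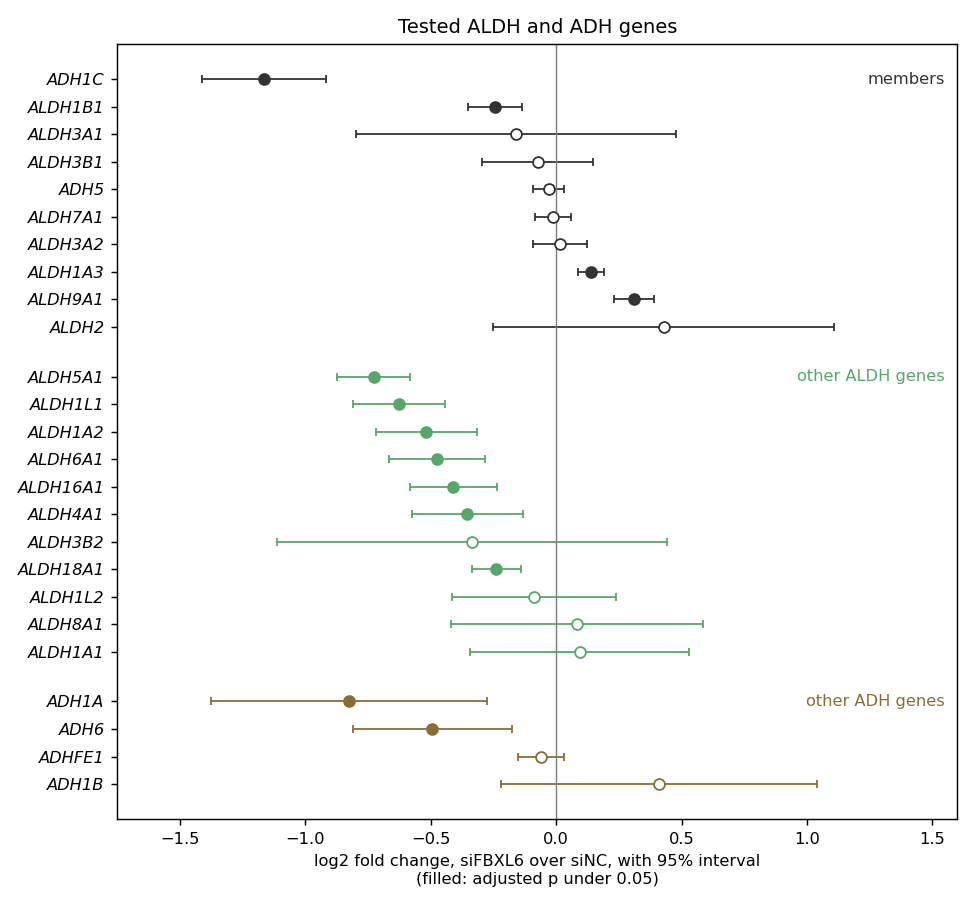
Log2 fold change of each tested ALDH and ADH gene, libraries labelled siFBXL6 over those labelled siNC, with its 95% interval; filled points have an adjusted p under 0.05. ADH1C lies furthest from 0 at -1.16, and the filled points among the other ALDH and ADH genes all lie below 0.

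Some of the reductases that turn aldehydes back into alcohols were higher and some lower. Of 19 aldo-keto and carbonyl reductases, 15 were tested, 5 were higher, 4 lower and 6 not called (60% called, beside 40.2% of all genes), with a median log2 fold change of -0.09. AKR1C2, a reductase of steroids and other carbonyls, rose from 2.83 ± 0.376 to 4.96 ± 0.609 CPM (SD, n = 3 each; log2 fold change 0.81, adjusted p = 8.85e-07). CBR4, a mitochondrial carbonyl reductase, rose with a log2 fold change of 0.34 (adjusted p = 1.03e-07), and CBR1, a cytosolic one, fell with one of -0.16 (adjusted p = 0.000447). AKR1B10, which reduces retinal and other aldehydes, was at 0.410, 0.437 and 0.418 CPM against 0.0165, 0.199 and 0.265 CPM. All libraries labelled siFBXL6 were lower but spread widely at this low level, and the log2 fold change was -1.39 (SE 0.456, adjusted p = 0.0143). The counts were 24, 27 and 24 against 1, 12 and 16, and without siFBXL6 replicate 1, the library with 1 count, the log2 fold change was -0.86 and AKR1B10 was no longer called (adjusted p = 0.121). Of the reference genes, ACTB was at 1168 ± 24.5 and 1168 ± 25.8 CPM (SD, n = 3 each; log2 fold change 0.00, adjusted p = 0.996). GAPDH, the glycolytic enzyme that oxidizes an aldehyde but lies outside the ALDH family, was at 195, 185 and 185 CPM against 661, 655 and 653 CPM (log2 fold change 1.80, adjusted p = 4.90e-31), and RP5-940J5.9 on the opposite strand covers 14.2% of its exon bases. The plot of the pathway lists shows how far single genes of each list lay from the median.

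**Figure D3:**
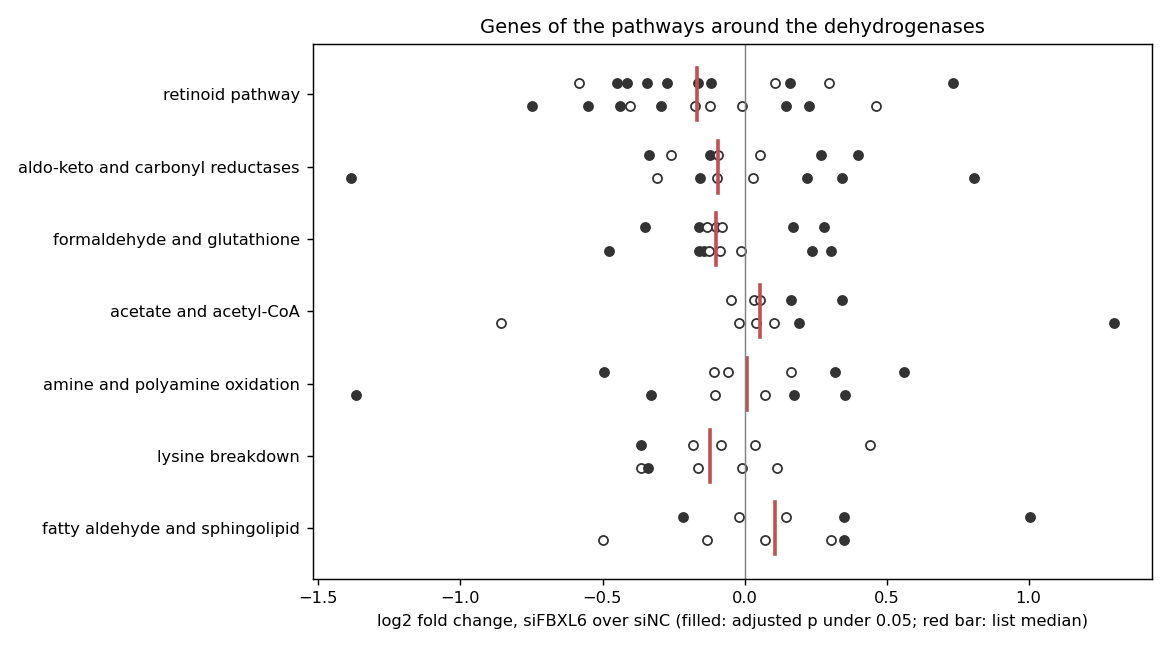
Log2 fold change of each tested gene in the 7 pathway lists around the dehydrogenases, libraries labelled siFBXL6 over those labelled siNC (filled: adjusted p under 0.05), with the median of each list as a red bar. The medians lie between -0.17 (retinoid pathway) and 0.11 (fatty aldehyde and sphingolipid), and single genes reach -1.39 and 1.30.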

How the data were processed

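The authors counted reads per gene and deposited 1 table of counts, without normalization, for 6 libraries made from 2 μg of RNA each with a stranded mRNA kit. The methods of the paper name Trimmomatic (0.36), HISAT2 and featureCounts (Subread 1.5.1). The submitted processing notes name fastp (0.23.0), STAR and featureCounts, with GRCh38 as the build. The annotation release, the strand setting and the treatment of reads that match several places were not stated. Which siRNA against FBXL6 was used was not stated either, and the label numbers 1 to 3 were read as replicate numbers, although the paper gives its 2 siRNAs the names siFBXL6-1 and siFBXL6-2.

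Counts were filtered with filterByExpr, scaled with TMM and tested with edgeR (4.0.16, limma 3.58.1, R 4.3.3) in a quasi-likelihood fit with condition as the only term. P-values were adjusted with the Benjamini-Hochberg method over 21298 genes. Library totals of 56814946 to 60968158 counts and a biological coefficient of variation of 3.57% set the precision. Intervals are 95% intervals from the model's standard error. The code was tested on simulated data. RPKM used the summed exon length in the table. Promoters were taken from RefSeq, and transcript lengths and shared 50-base runs from GENCODE release 44 (Ensembl canonical transcripts for the lengths and the members).

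Members and gene lists were chosen with earlier results of these data known. The genes named were FBXL6, ACTB, GAPDH, the members, genes that overlap members, near-identical copies, the 3 nearest profiles of 2 members, and of each pathway list the genes called with at least a 2-fold change and the 3 smallest adjusted p-values. SLC52A2, ALDH1A1, the markers and the genes of the ADH cluster were named besides. Alternatives were DESeq2 (1.42.0), other scalings and filters, the replicate number as a block, and each library left out. Halved counts, canonical lengths and the subtraction of an antisense count were added after the data were seen.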

Additional observations from a re-analysis of the deposited data

How the results depend on the processing

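The calls and directions of ALDH1A3, ALDH1B1, ALDH9A1 and ADH1C held under all 14 alternatives. Their log2 fold changes ranged from 0.12 to 0.15, from -0.27 to -0.22, from 0.29 to 0.33 and from -1.21 to -1.08. The number of members called was 4 under each of the 14, and the number of other ALDH genes called was 7, all lower. Members that were not called stayed so, and 3 of them changed sign around 0, each with an adjusted p over 0.05. The subtraction of the antisense count from ALDH1A3 is not used as a check, since that count was a near-constant share of it. With libraries left out in turn, ALDH3A1 ranged from -0.38 to 0.046 (positive without siNC replicate 3), ALDH3A2 from -0.019 to 0.041 and ALDH7A1 from -0.063 to 0.016. ALDH3A2 was at -0.0055 with upper-quartile normalization and at -0.0083 with library size alone. The cause of these changes was not tested.

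The number of other ADH genes called ranged from 0 to 2 with libraries left out, which leaves fewer samples in the fit. Genes called with at least a 2-fold change numbered 376 when 10 counts were required in every sample, beside 622, since fewer genes were then tested. The median log2 fold change of all genes was between -0.03 and -0.01 under each scaling, and calls were 4360 higher and 4209 lower with TMM, 3972 and 4718 with upper-quartile normalization, and 3930 and 4777 with library size alone.

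With the replicate number as a block, 8408 genes were called, beside 8569, with 4 members among them and a log2 fold change of -1.16 for ADH1C. No member changed its call under the block, and the counts of called genes among the other ALDH genes, the other ADH genes and the 7 pathway lists stayed equal. The counts for the marker lists were not compared between alternatives. Deviations of libraries with the same number had correlations of -0.011, 8.0e-05 and 0.013 across 21298 genes, which are not independent replicates, so the numbers were not taken as a pairing. Counts of 4 to 69 per library limited ALDH2, ALDH3A1, ADH1A, ADH1B and ADH5P4.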

Other observations

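Among genes with 1 to 10 counts in a library, 72.4 to 73.8% of the counts were even numbers. With all counts halved, an alternative added after the data were seen, the same 4 members were called. If pairs of reads were counted as 2, the printed counts would be 2 times the number of fragments; whether this was so was not tested. RP11-66B24.8 shares 63 of its 564 exon bases with ALDH1A3 on the same strand, and its other 501 exon bases all lie in RP11-66B24.1. RP11-66B24.8 had 6661 to 9253 counts per library, and RP11-66B24.1 had 17 to 34. How reads on shared bases were assigned was not stated.

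Between libraries of the same group, the halved counts gave a chi-square per degree of freedom of 1.43 to 3.11, and libraries of different groups gave 24.7 to 26.6. Whether samples of a group came from separate cultures cannot be told from such values.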
